A study of Homo sapiens with 10 samples.

Results

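IGF binding proteins and their receptors were compared between the human bladder cancer line T24 and T24R2, a cisplatin-resistant line derived from it. In T24R2 the transcripts of IGFBP3, IGFBP4 and IGFBP7 were at a small fraction of their T24 levels, with ratios of 53.7, 31.0 and 43.5 between the mean CPM of the lines. IGFBP6 differed in direction and was 1.48 times higher in T24R2. Per kb of exon, IGFBP6 made up 6.24% of the summed IGFBP2 to IGFBP7 level in T24 and 75.2% in T24R2, where the sum itself was 8.17 times lower. Among the receptors, IGF1R was 3.86 times lower, whereas INSR was 8.28 times higher and IGF2R 1.73 times higher. CPM are counts scaled to a common library size, here with the TMM factors of edgeR.

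The 10 genes are IGFBP2, IGFBP3, IGFBP4, IGFBP5, IGFBP6, IGFBP7, IGF2, IGF1R, IGF2R and INSR, out of 61533 genes in the count tables. They were chosen by gene family and by their measured values in T24R2 against T24 in these same libraries, so their differences between the lines are given as a description, without a test. Of the 10, 8 passed the filter on low counts and were among the 16181 genes fitted; IGF2 and IGFBP2 did not pass and are given as counts.

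Insulin-like growth factors signal mainly through IGF1R, a receptor tyrosine kinase on the cell surface, and the closely related insulin receptor INSR can pair with it into hybrid receptors. IGF2R has no kinase domain; it takes up IGF2 for degradation in lysosomes and sorts enzymes tagged with mannose 6-phosphate. The secreted IGF binding proteins hold most of the ligand outside cells, either withholding it from IGF1R or releasing it when proteases cleave them, and several of them also act on cells without a ligand.

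RNA-seq was performed on 5 libraries of each line, collected on day 3. T24 and T24R2 carried no other treatment in the labels, which list the same serum-containing medium for both lines. The study describes T24R2 as obtained by serial exposure of T24 to cisplatin and kept in medium with the drug. Line and drug exposure therefore cannot be told apart here, and each line is a single line. Total counts were 9257843 to 10247941 in T24 and 9591379 to 10840954 in T24R2, and mitochondrial genes took between 2.35% and 2.97% of them.

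The labelled cell type was checked against 17 urothelial and epithelial markers. Their summed level was 5415 CPM in T24 and 3114 CPM in T24R2, and the keratins KRT7, KRT8 and KRT18 made up most of it in both lines. The markers UPK1B, UPK3A, KRT20 and CDH1 were at the floor in both lines, meaning 3 counts or fewer in every library, and KRT19 and EPCAM were at the floor in T24R2 alone. The transcription factor GATA3 was at 22.1 ± 2.004 CPM in T24 and 0.214 ± 0.210 CPM in T24R2 (SD, n = 5). The 4 endothelial markers summed to 245 CPM in T24, of which CDH5 gave 239, and to 1.90 CPM in T24R2, of which PECAM1 gave 1.18 and CDH5 0.559, with KDR at the floor in both lines. Fibroblast markers summed to 9.94 CPM in T24 and 1.53 CPM in T24R2, with COL1A2, COL3A1, DCN and LUM at the floor in both lines. Immune markers summed to 0.451 and 0.985 CPM, with CD3E at the floor in both. The part of these marker differences in the IGF results was not tested, and in bulk RNA fewer cells that make a transcript and less of it per cell cannot be told apart.

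Promoter sequences are shown for the genes with the largest losses and for the genes that were higher in T24R2, because the results turn on them. The RefSeq table (GRCh38.p14) matched 8 of the 10 genes, all but IGF2 and IGFBP7. Each sequence is the 250 bases before the RefSeq start, 5′ to 3′ in the direction of the gene, and capitals mark matches on either strand to the TATA box letters TATAAA, the GC box letters GGGCGG, the E-box letters CACGTG and the AP-1 letters TGANTCA. For IGFBP3 and IGFBP6 the RefSeq start lies downstream of the gene start in the count tables, so the IGFBP3 window lies wholly, and the IGFBP6 window mostly, within the gene bounds given there. The windows are chr17:40443200-40443449 for IGFBP4 (plus strand), chr7:45921273-45921522 for IGFBP3 (minus), chr12:53097417-53097666 for IGFBP6 (plus), chr6:159968832-159969081 for IGF2R (plus) and chr19:7294415-7294664 for INSR (minus).
IGFBP4: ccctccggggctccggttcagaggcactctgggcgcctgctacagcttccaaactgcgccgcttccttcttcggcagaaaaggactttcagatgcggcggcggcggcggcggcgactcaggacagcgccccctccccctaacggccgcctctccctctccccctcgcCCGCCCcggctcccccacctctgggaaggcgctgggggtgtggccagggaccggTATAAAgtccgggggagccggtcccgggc
IGFBP3: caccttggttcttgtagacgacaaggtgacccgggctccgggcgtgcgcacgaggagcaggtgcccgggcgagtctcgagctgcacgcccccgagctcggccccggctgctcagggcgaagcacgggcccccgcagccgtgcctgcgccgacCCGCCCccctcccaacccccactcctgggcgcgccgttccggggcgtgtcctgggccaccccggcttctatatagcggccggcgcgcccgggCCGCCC
IGFBP6: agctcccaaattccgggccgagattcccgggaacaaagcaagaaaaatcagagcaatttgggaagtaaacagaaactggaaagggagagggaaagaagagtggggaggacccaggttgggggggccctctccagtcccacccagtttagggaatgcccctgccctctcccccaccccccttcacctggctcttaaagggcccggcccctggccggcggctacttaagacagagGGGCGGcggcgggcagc
IGF2R: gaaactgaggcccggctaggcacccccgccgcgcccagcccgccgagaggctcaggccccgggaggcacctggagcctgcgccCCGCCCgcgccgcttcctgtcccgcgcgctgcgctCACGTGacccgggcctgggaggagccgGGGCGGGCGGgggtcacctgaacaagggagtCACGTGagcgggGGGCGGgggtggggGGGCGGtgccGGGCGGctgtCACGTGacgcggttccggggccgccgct
INSR: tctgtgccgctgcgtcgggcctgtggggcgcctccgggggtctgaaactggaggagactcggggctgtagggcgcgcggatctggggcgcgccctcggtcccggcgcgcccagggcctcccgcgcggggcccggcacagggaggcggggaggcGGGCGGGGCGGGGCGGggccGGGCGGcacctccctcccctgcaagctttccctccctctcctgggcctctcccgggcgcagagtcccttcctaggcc

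IGFBP4 was the only one of the 5 printed windows with a TATAAA match, 29 bases before the start, together with 1 GC box. TATAAA occurs in 10.7% of the 35116 windows of the table and GGGCGG in 42.6%. The IGFBP3 window held 2 GC boxes and that of IGFBP6 held 1. INSR held 4 GC boxes, 3 of them in a single overlapping run. IGF2R held 6 GC boxes and 3 E-boxes, and 3 or more GC boxes occur in 13.9% of windows. CACGTG, the core letters of sites for basic helix-loop-helix factors, occurs in 6.34% of windows, and only 28 windows (0.0797%) held 3 or more. That count was chosen after the IGF2R sequence had been seen. The AP-1 letters, found in 6.57% of windows, matched in none of the 5. These matches describe letters in a window and not occupied sites.

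IGFBP4, which inhibits IGF action and is cleaved by the pappalysin PAPPA, was the most abundant of the family in T24 (ENSG00000141753.7, chr17:40443450-40457725, plus strand, hg38). It stood at 1675, 1583, 1561, 1829 and 1505 CPM in T24 replicates 1 to 5. In T24R2 replicates 1 to 5 it stood at 59.2, 50.9, 48.7, 53.1 and 51.4 CPM. Every T24 library was thus far above every T24R2 library, and the spread within a line was small, with an SD of 127 around 1631 CPM in T24 and of 3.98 around 52.7 CPM in T24R2. Fitted with edgeR, the log2 fold change was -4.95 ± 0.06 (SE). Per kb of exon, IGFBP4 ranked 46 among the 16181 fitted genes in T24 and 1895 in T24R2.

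IGFBP3, the main carrier of IGFs in blood, had the largest estimated fold change among the fitted members (ENSG00000146674.16, chr7:45912245-45921874, minus strand). Its T24 libraries were at 219, 240, 250, 304 and 221 CPM, and its T24R2 libraries at 3.49, 5.55, 5.18, 4.54 and 4.23 CPM, which rest on 38 to 64 counts each. The groups were far apart although the relative spread was wider than for IGFBP4, with a coefficient of variation of 13.9% in T24 and 17.6% in T24R2. The log2 fold change was -5.74 ± 0.10 (SE), and 234 of the fitted genes, IGFBP3 included, were lower in T24R2 by this much or more.

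IGFBP7, a secreted protein that binds IGFs only weakly and sits in the matrix around blood vessels, followed the same direction (ENSG00000163453.11, chr4:57030773-57110385, minus strand). It was at 471, 431, 440, 494 and 445 CPM in T24 and at 12.0, 10.2, 11.5, 8.38 and 10.3 CPM in T24R2. The lowest T24 library was far above the highest T24R2 library. The log2 fold change was -5.44 ± 0.07 (SE), and the rank per kb of exon moved from 154 to 7420 of the fitted genes. Of the exon bases of IGFBP7, 18.3% lie opposite exons of other genes, 260 bases against POLR2B and 94 against IGFBP7-AS1. IGFBP7-AS1, which is transcribed from the opposite strand, averaged 1913 counts per library in T24 and 9.40 in T24R2, with a log2 fold change of -7.87. POLR2B, a subunit of RNA polymerase II, averaged 1588 and 1367 counts, more than the 114 counts of IGFBP7 itself in T24R2. The counting used strand option 1 and the library kit is not described as strand-specific, so reads of IGFBP7 and of these genes in the shared bases cannot be told apart.

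IGFBP5, which binds extracellular matrix and bone mineral, was lower by less (ENSG00000115461.5, chr2:216672105-216695549, minus strand). Its libraries were at 165, 152, 155, 164 and 161 CPM in T24 and at 23.8, 27.2, 23.7, 22.9 and 26.2 CPM in T24R2. The groups did not overlap, and the mean was 6.45 times lower in T24R2. On the log2 scale its fold change was -2.69 ± 0.06 (SE). An unnamed gene, ENSG00000236886.2, shares 298 exon bases on the opposite strand, and taking all of its counts away from IGFBP5 left the log2 ratio of the means at -2.67.

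IGFBP6, which binds IGF2 in preference to IGF1, was the one fitted binding protein with a higher level in T24R2 (ENSG00000167779.9, chr12:53097436-53102345, plus strand). T24 libraries were at 96.0, 86.9, 95.6, 102 and 91.3 CPM. T24R2 libraries were at 153, 144, 124, 138 and 139 CPM. The highest T24 library, replicate 4, remained below the lowest T24R2 library, replicate 3. The log2 fold change was 0.56 ± 0.05 (SE), close to the threshold of 0.5, and it was between 0.56 and 0.73 under the other scalings between libraries. Its rank per kb of exon was 632 in T24 and 301 in T24R2.

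IGFBP2, a carrier that is abundant in many tumours and in blood, was hardly detected (ENSG00000115457.10, chr2:216632828-216664436, plus strand). It had 0, 0, 1, 2 and 3 counts in T24 and 5, 0, 0, 0 and 3 counts in T24R2. These ranges overlap, and no ratio is given. It lies 7.67 kb from IGFBP5, so 2 adjacent binding protein genes stood at very different levels in T24.

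IGF2, the ligand, was present at a trace in T24 alone (ENSG00000167244.21, chr11:2129112-2141238, minus strand). It had 15, 11, 7, 11 and 8 counts in T24 and 0 in each of the 5 T24R2 libraries. Set against a floor of 3 counts per library, the level in T24R2 was at least 4.01-fold lower. Of the exon bases of IGF2, 70.7% are shared with other genes on the same strand, and fragments that match several genes were not counted, so these counts may understate the locus.

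**Figure D1:**
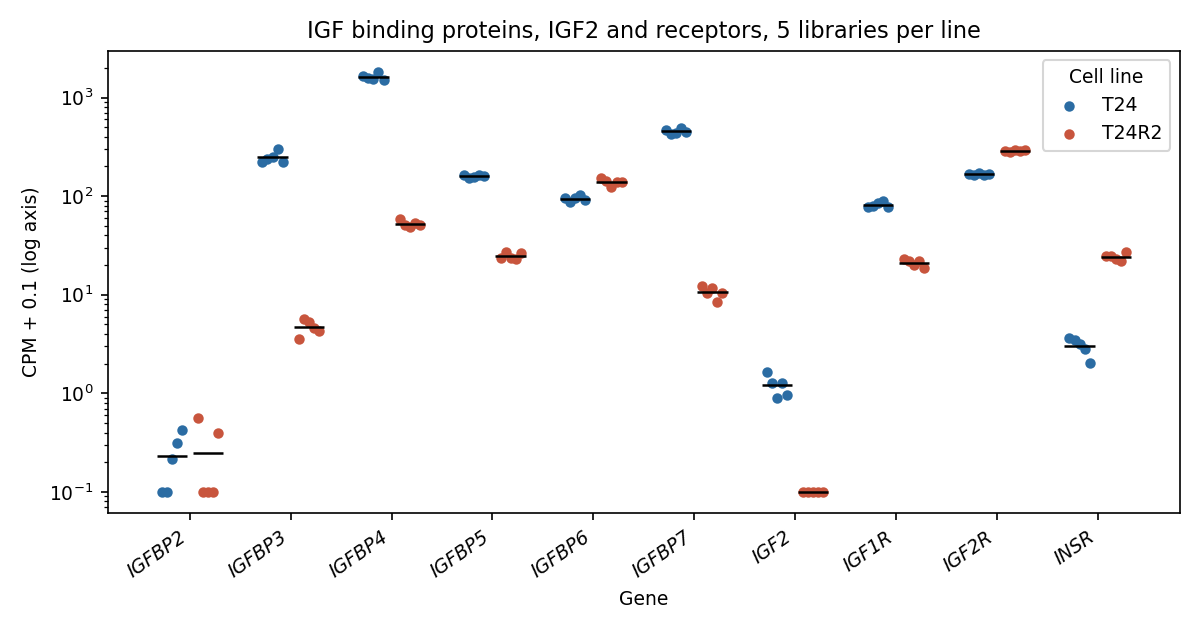
CPM of the 10 genes in each library, with 0.1 added, on a log axis; points are libraries, colours are the lines and bars are means of 5 libraries. IGFBP3, IGFBP4 and IGFBP7 go from 247, 1631 and 456 CPM in T24 to 4.598, 52.7 and 10.5 CPM in T24R2, while INSR goes from 2.92 to 24.2 CPM.

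Levels of different genes were compared per kb of exon. The summed level of IGFBP2 to IGFBP7 was 1125 ± 79.6 CPM per kb in T24 and 138 ± 9.47 CPM per kb in T24R2 (SD, n = 5), a ratio of 8.17. In T24, IGFBP4 gave 65.7% ± 0.709 of this sum, IGFBP7 21.0% ± 0.565, IGFBP6 6.24% ± 0.242 and IGFBP3 4.79% ± 0.430. The T24 pool was thus mainly IGFBP4 and IGFBP7. In T24R2, IGFBP6 gave 75.2% ± 0.867, IGFBP4 17.3% ± 0.602, IGFBP7 3.96% ± 0.570 and IGFBP3 0.738% ± 0.160. IGFBP5 gave 2.20% ± 0.119 in T24 and 2.79% ± 0.249 in T24R2. These shares depend on the division by length: as shares of counts, IGFBP6 was at 3.65% in T24 and 60.0% in T24R2, IGFBP5 at 6.18% and 10.7%, and IGFBP3 at 9.52% and 1.998%. The makeup differed little between libraries of a line, with IGFBP6 between 5.97% and 6.54% in T24 and between 73.7% and 76.0% in T24R2.

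**Figure D2:**
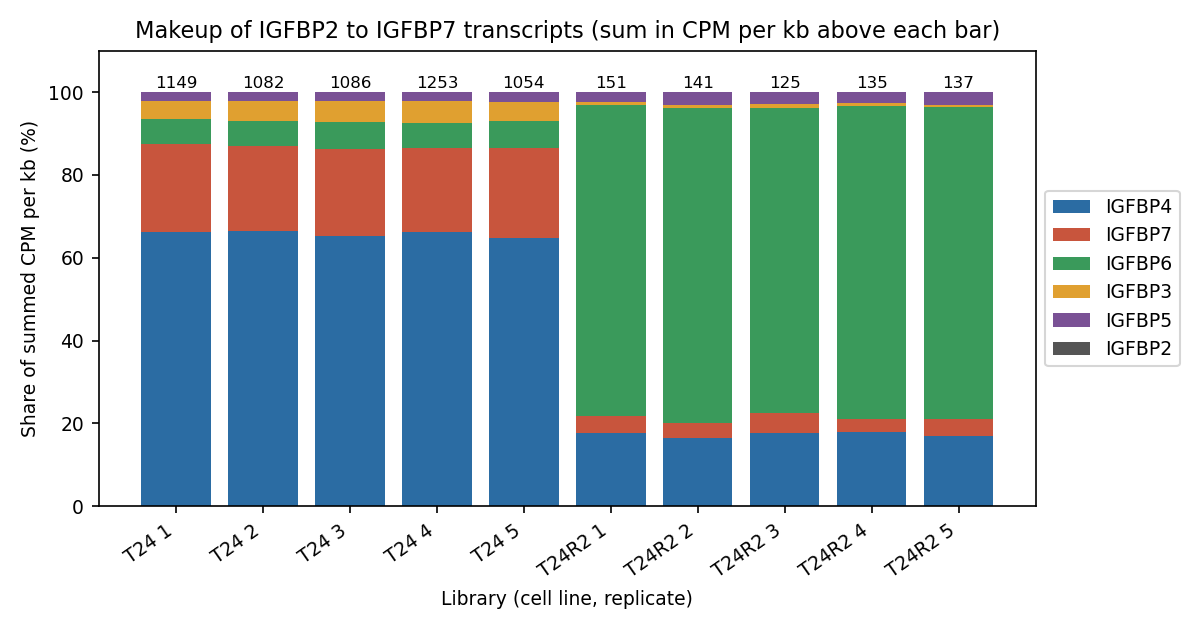
Share of each binding protein in the summed CPM per kb of IGFBP2 to IGFBP7 (percent), 1 bar per library, with the sum in CPM per kb above the bar. IGFBP4 fills 64.8% to 66.4% of each T24 bar, and IGFBP6 fills 73.7% to 76.0% of each T24R2 bar.

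The order of the 10 genes per kb of exon in T24 was IGFBP4, IGFBP7, IGFBP6, IGFBP3, IGFBP5, IGF2R, IGF1R, INSR, IGF2 and IGFBP2. The ranges of IGFBP6 and IGFBP3 overlapped, as did those of INSR and IGF2, and all other neighbours in the order were apart in every library. In T24R2 the order was IGFBP6, IGFBP4, IGF2R, IGFBP7, IGFBP5, INSR, IGF1R, IGFBP3, IGFBP2 and IGF2. There the ranges of IGFBP2 and IGF2 overlapped. The mannose 6-phosphate receptor gene IGF2R thus stood below 5 binding proteins in T24 and above all of them but IGFBP6 and IGFBP4 in T24R2.

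IGF1R, which carries the growth signal of both IGFs, was lower in T24R2 (ENSG00000140443.15, chr15:98648539-98964530, plus strand). Its T24 libraries were at 77.3, 78.5, 84.2, 89.5 and 77.7 CPM and its T24R2 libraries at 23.2, 21.9, 19.8, 22.1 and 18.5 CPM. No T24R2 library came near the T24 range. Its log2 fold change was -1.95 ± 0.07 (SE).

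INSR, the insulin receptor, which also binds IGF2 in one of its splice forms, showed the opposite (ENSG00000171105.14, chr19:7112255-7294414, minus strand). It was at 3.53, 3.37, 3.09, 2.69 and 1.94 CPM in T24, from 18 to 34 counts, and at 24.6, 24.8, 23.0, 21.8 and 26.8 CPM in T24R2. The coefficient of variation was 21.7% in T24 and 7.72% in T24R2, and the groups were far apart. The log2 fold change was 3.04 ± 0.14 (SE). The gene counts do not separate the splice forms of INSR.

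IGF2R was higher by a smaller step (ENSG00000197081.16, chr6:159969082-160113507, plus strand). It was at 167, 163, 172, 164 and 169 CPM in T24 and at 285, 278, 296, 290 and 297 CPM in T24R2. Libraries within a line differed very little, with coefficients of variation of 2.15% and 2.72%, and the lines did not overlap. This gave a log2 fold change of 0.79 ± 0.04 (SE).

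Per kb of exon, IGF1R was 22.7 ± 5.81 times the level of INSR in T24 and 0.682 ± 0.0933 times in T24R2 (SD, n = 5). The order of the signalling receptors was therefore opposite in the lines, with ratios of 17.0 to 31.0 in the T24 libraries and of 0.537 to 0.786 in the T24R2 libraries. IGF2R was 1.27 ± 0.0855 times the level of IGF1R in T24 and 8.52 ± 0.996 times in T24R2. IGF2R was 28.7 ± 7.68 times the level of INSR in T24 and 5.75 ± 0.479 times in T24R2.

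**Figure D3:**
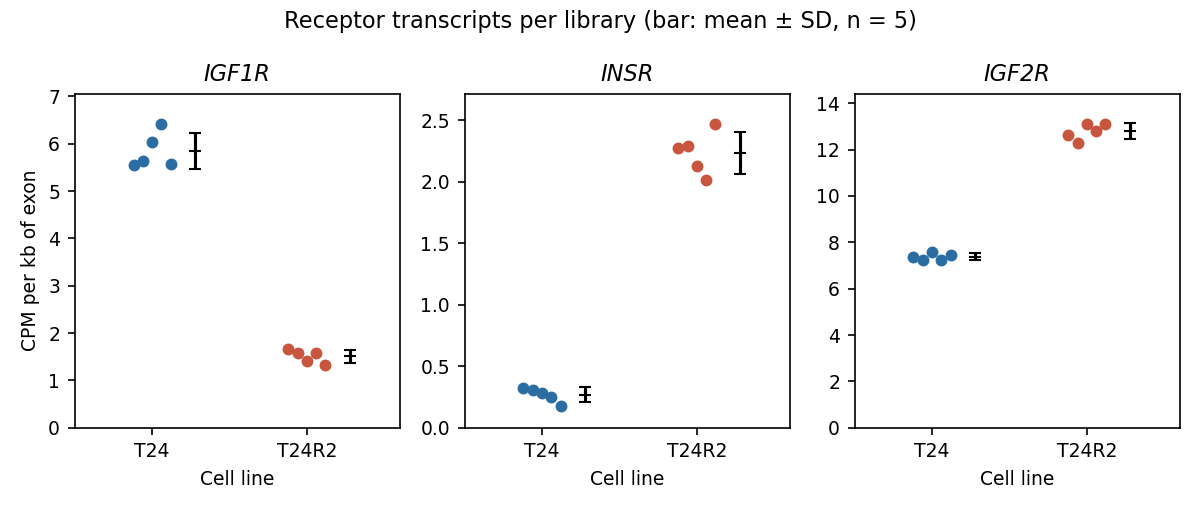
CPM per kb of exon of IGF1R, INSR and IGF2R in each library, on axes that start at 0 and differ in scale between panels; points are libraries and the bars beside them are mean ± SD (n = 5). IGF1R is at 5.84 in T24 and 1.51 in T24R2, INSR at 0.270 and 2.23, and IGF2R at 7.38 and 12.8.

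Across all genes, a gene was called when the Benjamini-Hochberg adjusted p of edgeR's quasi-likelihood test was under 0.05 and the log2 fold change over 0.5 in size. Calls were made for 51.4% of the 16181 fitted genes, 24.9% higher and 26.5% lower in T24R2. Past a log2 fold change of 0.5, 3 of the 8 fitted members were higher and 5 lower, and 5 were past 2, where 9.91% of all fitted genes lie. In all 8 the lines did not overlap in CPM, which holds for 61.2% of fitted genes. Since the members were chosen on this contrast, nothing is read from these counts. Their median log2 fold change was -2.32, and that of all fitted genes was 0.01. Without TMM scaling the median of all genes moved to 0.18 and the split of calls from 4027 higher and 4282 lower to 5206 and 3431, but no member changed direction.

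The rest of the IGF pathway was examined in a list of 83 genes in 10 roles, which left the members out. Of the 69 that were fitted, 11 were called higher and 27 lower, and 31 were not called. The share called lower was 39.1%, beside 26.5% of all genes, and the share called higher was 15.9%, beside 24.9%. The median log2 fold change of the list was -0.22. Without TMM scaling the split was 16 higher and 24 lower. Among the 36 fitted pathway genes not overlapped on the opposite strand it was 7 higher and 12 lower. Nothing in the labels says that the 5 libraries of a line came from separate cultures, so these p-values measure the spread between libraries. The adjusted p-values below are from edgeR's quasi-likelihood test over all 16181 genes.

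Of the 6 other family genes, IGFBP1 alone was detected well enough to be fitted. IGFBP1, a binding protein whose gene lies 18.6 kb from IGFBP3, had 40 to 59 counts in the T24 libraries and 0 in every T24R2 library, at least 18.0-fold lower against the floor of 3 counts (edgeR adjusted p = 1.5e-15). IGF1, INS, IGFBPL1 and INSRR were at the floor in both lines, and IGFALS, which forms the circulating complex with IGFBP3, had at most 5 counts. IGF1 thus had at most 1 count in any library. INS lies at the INS-IGF2 readthrough gene, and fragments that match several genes were not counted, so its 0 counts are no measure of insulin transcript.

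Proteases that cleave the binding proteins and the stanniocalcins that inhibit them changed in both directions, with 2 of 7 fitted genes higher and 4 lower. PAPPA2, a pappalysin that cleaves IGFBP3 and IGFBP5, went from 0 to 2 counts in T24 to 112 to 163 in T24R2, at least 36.1-fold higher (edgeR adjusted p = 4.3e-21). PAPPA, the pappalysin that cleaves IGFBP4, went the other way, from 13 to 26 counts in T24 to 0 or 1 in T24R2, at least 7.74-fold lower (edgeR adjusted p = 1.3e-10), and 2450 of its 11585 exon bases lie opposite another gene. STC1, an inhibitor of pappalysins, was at least 62.0-fold lower (edgeR adjusted p = 1.1e-24). Its paralog STC2 was higher, at 232 ± 13.1 CPM in T24 and 508 ± 22.9 CPM in T24R2 (log2 fold change 1.13 ± 0.05, edgeR adjusted p = 5.8e-24). ADAM9, a membrane metalloprotease, had a log2 fold change of -1.28 ± 0.05, and the related ADAM12 was not called at -0.34 ± 0.07. The stanniocalcin genes, like the pappalysin genes, were called in opposite directions, for PAPPA on counts that were low in both lines. HTRA1, another protease in this role, was lower, at 33.0 ± 4.85 CPM in T24 and 6.055 ± 1.17 CPM in T24R2 (log2 fold change -2.45 ± 0.12, edgeR adjusted p = 5.4e-21).

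Of 5 fitted surface partners of the binding proteins, 4 were lower and 0 higher. The integrin chains ITGB1 and ITGA5 had log2 fold changes of -1.13 ± 0.04 and -1.20 ± 0.05, and LRP1, an endocytic receptor that binds IGFBP3, of -0.90 ± 0.05. TMEM219, a death receptor for IGFBP3, was at -0.55 ± 0.06, but its log2 fold change was -0.39 without TMM scaling and -0.48 with upper-quartile scaling, short of the threshold. CAV1, the caveolae protein, was at 0.48 ± 0.04 and not called, but at 0.64 and 0.55 under those scalings it passed, as it did at 0.51 with a mean of at least 100 counts.

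Among receptor substrates and adaptors, 1 of 10 fitted genes was higher and 4 were lower. GRB10, an adaptor that dampens signalling of INSR and IGF1R, was at 103 ± 6.18 CPM in T24 and 15.0 ± 0.358 CPM in T24R2 (log2 fold change -2.78 ± 0.07, edgeR adjusted p = 1.8e-31). Of the docking proteins, IRS2 had a log2 fold change of -1.63 ± 0.10, whereas IRS1 was at 92.9 ± 6.78 and 91.2 ± 2.46 CPM with overlapping libraries and was not called. GRB2 was at -0.78 ± 0.05 and SOS1, the exchange factor it recruits to RAS, at 0.68 ± 0.07 (edgeR adjusted p = 8.9e-12). SHC1, at 434 ± 15.8 and 421 ± 20.9 CPM, was not called.

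Of 8 genes for receptor processing and negative regulation, 2 were higher and 3 lower. NEDD4, a ubiquitin ligase that acts on IGF1R, was at 64.0 ± 4.55 CPM in T24 and 212 ± 6.69 CPM in T24R2 (log2 fold change 1.73 ± 0.05, edgeR adjusted p = 2.4e-28). ENPP1, a membrane phosphodiesterase that inhibits INSR, had a log2 fold change of 2.45 ± 0.15 (edgeR adjusted p = 2.9e-18). SOCS3, a feedback inhibitor, was at -2.30 ± 0.09, and MDM2, another ubiquitin ligase of IGF1R, at -1.01 ± 0.08. FURIN, which cleaves the receptor precursors, and PTPN1, a phosphatase of INSR, were not called at -0.16 ± 0.05 and -0.12 ± 0.04.

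In the PI3K and AKT arm, 2 of 9 fitted genes were higher and 3 lower. The regulatory subunit PIK3R1 had a log2 fold change of 1.36 ± 0.09 (edgeR adjusted p = 1.4e-16), and the catalytic subunits PIK3CA and PIK3CB at -0.94 ± 0.08 and -0.79 ± 0.08. AKT1 was not called at -0.13 ± 0.05, nor was AKT2 at 0.36 ± 0.05, although AKT2 passed at 0.52 without TMM scaling. Among FOXO factors, which AKT keeps out of the nucleus, FOXO1 was at -2.04 ± 0.09, FOXO4 at 0.67 ± 0.11 and FOXO3, not called, at 0.17 ± 0.07.

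Regulators of IGF2 mRNA and of its imprinted locus showed 2 of 8 higher and 3 lower. HMGA2, a chromatin protein that acts upstream of IGF2BP2, was at 195 ± 10.9 CPM in T24 and 18.0 ± 1.30 CPM in T24R2 (log2 fold change -3.43 ± 0.06, edgeR adjusted p = 5e-36). IGF2BP2, an RNA-binding protein of IGF2 mRNA, was at -1.43 ± 0.05, whereas its paralog IGF2BP1 was at 1.22 ± 0.07 and IGF2BP3 was not called at -0.22 ± 0.08. H19, the imprinted RNA beside IGF2, had 15 to 30 counts in T24 and at most 1 in T24R2, at least 8.57-fold lower (edgeR adjusted p = 3.5e-12). IGF2 and H19, which lie 128 kb apart, were thus both near 0 in T24R2. CTCF, which binds the insulator between them, was at 0.40 ± 0.06, not called, and passed at 0.57 without TMM scaling.

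The mannose 6-phosphate pathway of IGF2R had 0 of 11 genes higher and 2 lower, so no gene of its sorting route was called higher. PLAUR, the urokinase receptor and a ligand of IGF2R, had a log2 fold change of -1.74 ± 0.07 (edgeR adjusted p = 4.6e-24), and the sorting adaptor GGA3 of -0.87 ± 0.08. The retromer subunit VPS35, at -0.27 ± 0.05, and GGA2, at -0.20 ± 0.05, were not called. Of 7 factors for INSR transcription and splicing, 1 was higher and 2 lower. HMGA1, which activates INSR transcription, was at 3836 ± 186 CPM in T24 and 1625 ± 84.0 CPM in T24R2 (log2 fold change -1.24 ± 0.04, edgeR adjusted p = 1.9e-26). The splicing factors SRSF1 and CELF1 were at 0.74 ± 0.05 and -0.58 ± 0.05, and CELF1 did not pass at -0.42 without TMM scaling. SRSF3, at 0.36 ± 0.04, was not called but passed at 0.52 without TMM scaling. MBNL1, at 203 ± 10.6 and 202 ± 7.62 CPM, was not called.

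**Figure D4:**
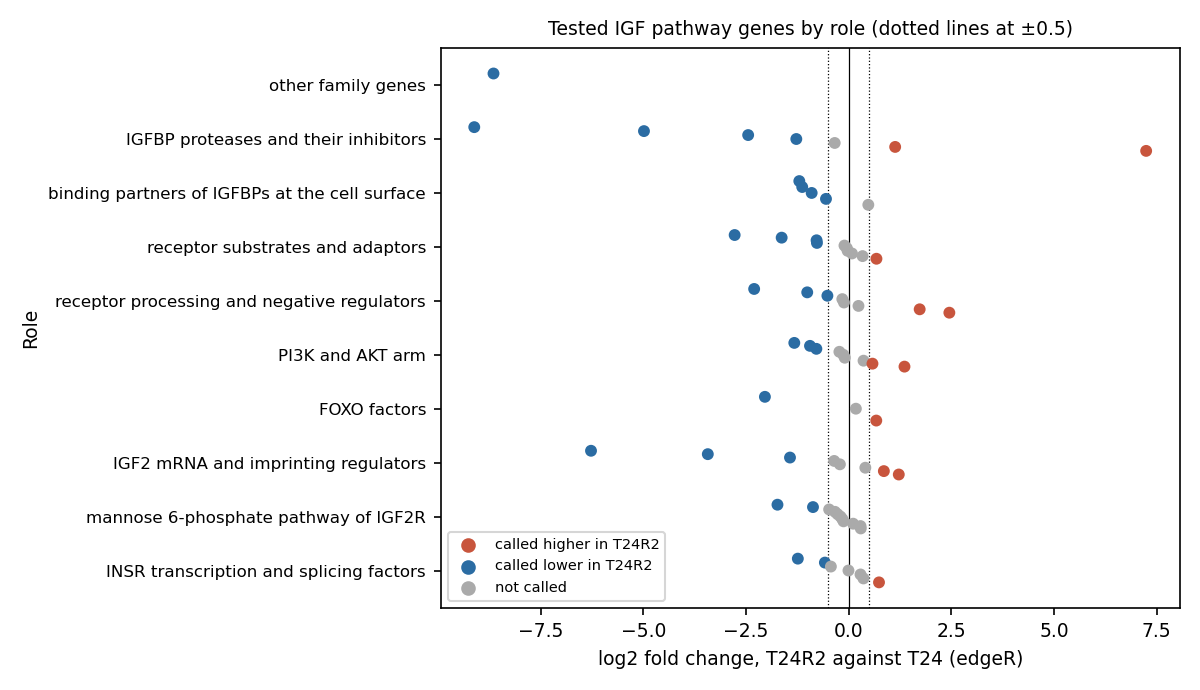
Log2 fold change of the 69 fitted pathway genes, T24R2 against T24, by role; each point is a gene, coloured by its call, with dotted lines at 0.5 on either side of 0. Calls number 11 higher and 27 lower; the positions of IGFBP1, PAPPA, PAPPA2, STC1 and H19 are fitted values against a line at the floor and depend on the prior count.

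The nearest fitted gene on each side of the members, 18 genes in all once members were left out, showed 6 higher, 6 lower and 6 not called. Nearest means nearest among fitted genes that do not overlap the member, and these lay between 18.0 kb and 8463 kb from it. Fitted genes that share exon bases with a member were not among the 18. These were IGFBP7-AS1 and POLR2B at IGFBP7, at -7.87 and -0.44, and ENSG00000236886.2 at IGFBP5, at -2.86. Of the 18 neighbours, 66.7% were called, beside 51.4% of all genes. They include IGFBP1 and H19, both lower, which are also counted in the pathway list. DIRC3-AS1, 566 kb from IGFBP5, was higher with a log2 fold change of 2.40 ± 0.12 (edgeR adjusted p = 8.4e-21), while IGFBP5 itself was lower. SPRYD3, 18.0 kb from IGFBP6, was lower at -1.13 ± 0.09, while IGFBP6 was higher. Both fitted neighbours of IGFBP3 were lower, as IGFBP3 was, with IGFBP1 at least 18.0-fold lower and TNS3, 1353 kb away, at -0.96 ± 0.05. Beside IGF1R, which was lower, ARRDC4 was lower at -0.99 ± 0.14 and SYNM was higher. INSR and IGF2R were higher, and so were both fitted neighbours of each. ZNF557, 24.3 kb from INSR, was at 1.41 ± 0.14, and ARHGEF18 lay 54.5 kb from INSR. MRPL18, 170.6 kb from IGF2R, was at 0.59 ± 0.06. LPAL2, 339.9 kb from IGF2R, was at least 9.10-fold higher (edgeR adjusted p = 1e-12). Both fitted neighbours of IGFBP4 were not called, with TOP2A at -0.39 ± 0.04 and TNS4 at -0.70 ± 0.33. Without 1 library, TNS4 was called at -0.87 (T24 replicate 5), -0.83 (T24R2 replicate 2) or -0.91 (T24R2 replicate 3). SYNM and ARHGEF18, higher at 0.60 ± 0.15 and 0.50 ± 0.05, stood near the threshold: SYNM was at 0.50 without T24 replicate 3, and ARHGEF18 was at 0.48 without T24 replicate 2, 0.48 without T24 replicate 5 and 0.49 without T24R2 replicate 5. ARHGEF18 also fell short of the threshold without the count filter, at 0.4984, and with DESeq2, at 0.4967 without shrinkage and 0.4952 with it. NOA1, the neighbour of IGFBP7 called lower at -0.66 ± 0.08, was at -0.4995 without TMM scaling and then not called.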

How the data were processed

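RNA-seq libraries of T24 and T24R2, 5 of each, were used. Alignment by the authors was to hg38 (STAR 2.7.0), after which multimapped and duplicate reads were discarded (samtools 1.10). The authors obtained fragment counts per gene from featureCounts 2.0.1 with the GENCODE 39 annotation and strand option 1. The deposited values are raw counts for 61533 genes, with 0 rows lacking an identifier. Removal of duplicates may lower the counts of abundant transcripts.

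The members and gene lists were chosen with earlier results of these data known. Counts were fitted in R 4.3.3 with edgeR 4.0.16 (filterByExpr, TMM, glmQLFit, glmQLFTest, Benjamini-Hochberg adjustment; thresholds of 0.05 and, on the log2 fold change, 0.5). TMM factors were 0.936 to 0.951 in T24 and 1.04 to 1.07 in T24R2, and the biological coefficient of variation was 6.61%. CPM used TMM-scaled library sizes, and CPM per kb divided them by all exon bases of a gene in the tables. A line with at most 3 counts in every library was at the floor, which covers counting error only. Named genes were the 10 members, all other family genes, in each role up to 4 called genes with the smallest adjusted p and up to 2 uncalled genes with the highest mean CPM, the nearest fitted genes of each member, genes that share its exon bases, and genes with the most similar profile. Some genes within the rule are not reported here. PAPPA and HTRA1 were named outside this rule, after their values were seen.

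Alternatives were other scalings, DESeq2 1.42.0, limma-voom (limma 3.58.1), other filters and thresholds, a replicate block and leaving out each library. The edgeR steps alone were tested on simulated counts, with balanced changes in a small part of the genes. In the data 51.4% of fitted genes were called, so that test does not cover the choice of scaling. Scripts used Python 3.11.15, numpy 2.4.6, pandas 2.3.3 and matplotlib 3.10.9.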

Additional observations from a re-analysis of the deposited data

How the results depend on the processing

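All 8 fitted members kept their direction under the other scalings, tests and filters, the replicate block and leaving out each library. Taking away all counts of opposite-strand genes gave no value for IGFBP7, whose T24R2 counts are fewer than theirs. Without TMM scaling their log2 fold changes moved up together, to -5.58 for IGFBP3, -5.28 for IGFBP7, -4.79 for IGFBP4, -2.52 for IGFBP5, -1.78 for IGF1R, 0.73 for IGFBP6, 0.96 for IGF2R and 3.21 for INSR. Of all genes, 8309 were called, and 4991 with a mean of at least 100 counts (10686 genes fitted) or 4211 with a log2 fold change over 1. That threshold left 6 of 69 fitted pathway genes higher and 18 lower, and 6 of the 18 neighbouring genes, beside 4211 of all 16181. Removal of genes overlapped on the opposite strand, chosen after the data were seen, left 36 fitted pathway genes with 7 higher and 12 lower. Of all fitted genes, overlapped ones included, 24.9% were higher and 26.5% lower.

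Leaving out 1 library gave 8398 to 8466 calls, 10 to 12 pathway genes higher and 26 to 28 lower. CAV1 passed at 0.50 without T24R2 replicate 1. Same-numbered libraries did not deviate together (correlations -0.02 to 0.02 in 5 pairs, with 0 libraries closest to their own number), and a replicate block gave 8240 calls with 11 pathway genes higher and 27 lower. With the length of the canonical transcript (GENCODE release 44, added after the data were seen), IGFBP6 held 79.9% of the IGFBP sum in T24R2 and IGFBP4 57.8% in T24, against 60.0% and 63.0% as shares of counts without division by length. With the canonical length, IGF1R and IGFBP3 exchanged places in the T24R2 order.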

Other observations

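Profiles most like those of IGFBP7 and IGFBP3 were sought among 10670 fitted genes averaging 10 CPM or more, by the Euclidean distance of log2(CPM + 0.5), centred on its mean, over the 10 libraries. PTX3, a secreted pattern recognition protein, was nearest to IGFBP7 at a distance of 0.49, with 605 ± 40.7 CPM in T24 and 15.4 ± 0.829 CPM in T24R2 (SD, n = 5). OPLAH, an enzyme of glutathione turnover, was among the nearest 3 for both members, with 22.7 ± 1.501 CPM in T24 and a level of 0 in every T24R2 library. The unnamed gene ENSG00000258525 was nearest to IGFBP3 at 0.52, and C9orf64 was the third. The distance is on a log scale with a pseudocount, so genes at 0 in T24R2 can lie close to members that are low there. Such a profile is mostly the difference between the lines, on which the members were chosen. Likeness beyond that difference is therefore not shown.

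No member or pool value of the 18 sets of 5 libraries examined had a library that stood apart by Dixon's ratio.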
